A study of Homo sapiens with 6 samples.

Results

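The mevalonate pathway enzymes from acetyl-CoA to squalene were followed in MDA-MB-231 shBry and MDA-MB-231 shNC cells. The 9 genes, ACAT2, HMGCS1, MVK, PMVK, MVD, IDI1, FDPS, GGPS1 and FDFT1, were chosen by name from the 54259 gene symbols of the count table, by a rule that uses none of their values. The choice was nevertheless made with earlier results of these data known. The step between HMGCS1 and MVK was not analysed here. Total RNA of MDA-MB-231, a mesenchymal-like human breast cancer line, was sequenced in 3 shBry libraries, from cells with a short hairpin RNA against brachyury, and in 3 shNC libraries, from cells with the control hairpin. Brachyury is a T-box transcription factor. Both groups share the one cell line and both carry a hairpin, and the hairpin sequence for this line and whether cells were cloned or pooled are not given in the sources used here. The knockdown and any other action of the hairpin cannot be told apart in this design. The comparison addressed which transcripts differ between cells with the brachyury hairpin and cells with the control hairpin.

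The mevalonate pathway joins acetyl-CoA units into isoprenoids. Its early steps make mevalonate, its kinases and a decarboxylase turn mevalonate into isopentenyl diphosphate, and prenyltransferases join these units into farnesyl diphosphate. Farnesyl diphosphate then goes either to squalene and cholesterol or to geranylgeranyl diphosphate and protein prenylation, and most genes of the sterol branch are known targets of the transcription factor SREBP-2.

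Library totals ran from 19319411 to 22985371 counts, and 15277 genes passed the filter on low counts. The targeted gene, listed under its symbol T, had a count of 0 in each of the 6 libraries, so the knockdown could not be checked on its own transcript. The shNC controls thus held no counted target transcript, whereas the study describes brachyury as constitutively overexpressed in this line. The reason for the difference was not tested. The series text calls the RNA pericardial whereas the sample labels name MDA-MB-231. The 5 markers that are high in this line were all above 1 CPM (counts scaled to a common library total) and summed to between 4995 and 5228 CPM in shBry and between 5454 and 5682 CPM in shNC. Of 5 markers taken as low or absent in it, 2 passed 1 CPM. The list summed to 216 to 263 CPM in shBry and 839 to 923 CPM in shNC, mostly KRT8. KRT8 averaged 239 CPM in shBry and 891 CPM in shNC, so it was not low here. In shNC it lay above CD44 (503), CAV1 (189) and SPARC (94.4) of the high markers, and below VIM (3864) and AXL (907). Of 6 leukocyte markers, 3 were at 0 throughout and the sum stayed at or below 0.229 CPM. Of 5 fibroblast markers, COL1A1 alone passed 1 CPM, and the list summed to 20.8 to 24.3 CPM in shBry and 19.4 to 23.9 CPM in shNC. Of 8 mesothelial or heart markers 3 passed, with sums of 51.4 to 57.6 CPM in shBry and 40.1 to 41.8 CPM in shNC. The 3 endothelial markers summed to 0.431 to 0.621 CPM in shBry and 1.0 to 1.23 CPM in shNC. Of all these markers, KRT8 (log2 fold change -1.90), CAV1 (-1.11) and CALB2 (-2.52, with 30, 29 and 222 counts in shNC) were called lower in shBry, and EPCAM (1.47) and LRRN4 (0.76) were called higher. The part of these markers in the results below was not tested.

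Of the 9 enzymes, 7 were lower in shBry by the test across all genes and 0 were higher. A gene was called when it passed both 0.05 for the Benjamini-Hochberg (BH) adjusted p of edgeR's quasi-likelihood test, over all genes, and a fold limit of 1.5. Among all genes tested, 15.2% were called lower. The members that fell were ACAT2, HMGCS1, MVK, MVD, IDI1, FDPS and FDFT1, and their 3 shBry libraries lay below the 3 shNC libraries in each case, as they did for 28.9% of all genes tested. The median log2 fold change was -1.61 over the 9 members and 0.03 over all genes tested. The members together took 0.132%, 0.136% and 0.134% of all counts in the shNC libraries and 0.0456%, 0.0435% and 0.0450% in the shBry libraries. In bulk RNA, fewer cells that express a gene and less RNA per cell cannot be told apart. The labels do not say whether libraries came from separate cultures, so the p-values measure only the spread between these libraries.

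**Figure D1:**
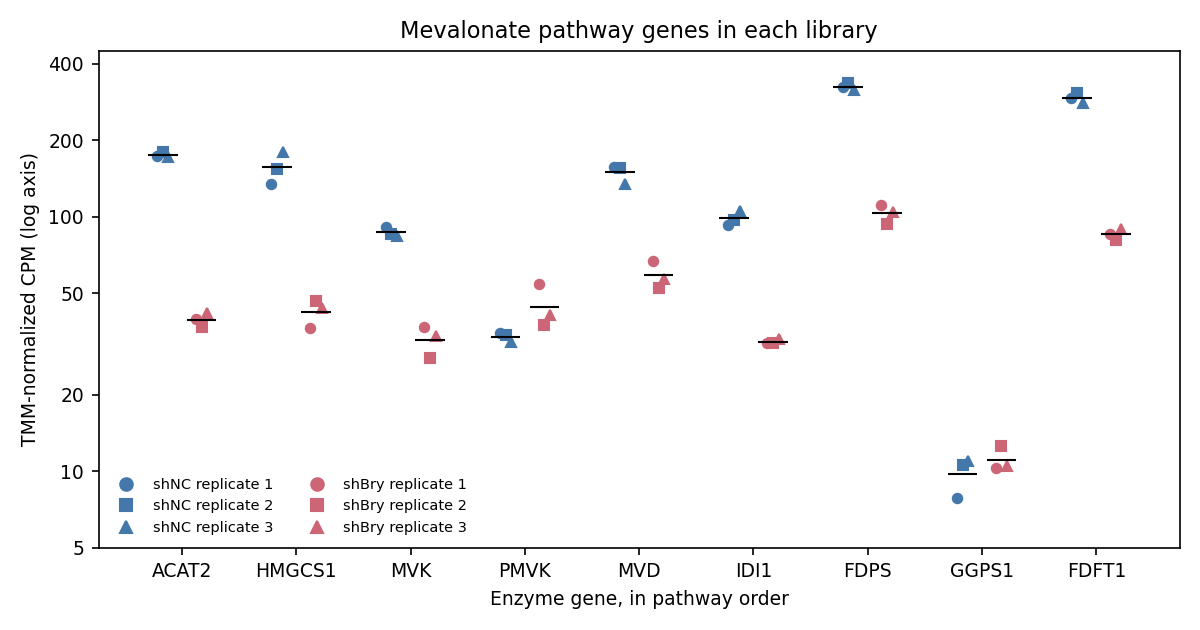
Normalized CPM (log axis) of the 9 enzyme genes in pathway order in each of the 6 libraries, with shNC in blue, shBry in red and group means as black bars. The 7 genes that fell separate fully, PMVK separates the other way and GGPS1 overlaps.

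The promoters of 4 members that moved together and of GGPS1 are shown so that their CCAAT boxes, letters bound by the factor NF-Y, can be compared. Promoter windows of 250 bases before the start were read from RefSeq on GRCh38.p14 for 7 of the 9 genes, all but ACAT2 and FDFT1. That of FDPS is not shown, because an exon boundary cuts through one of its matches. Each stretch runs 5′ to 3′ on the strand of its gene, covers the bases of the window that lie outside the annotated exons of the gene, and has CCAAT in either orientation in capitals. The stretch of HMGCS1 is chr5:43313513-43313662 on the minus strand, that of MVK is chr12:109573572-109573792 on the plus strand, and that of MVD is chr16:88663162-88663341 on the minus strand. The stretch of IDI1 is chr10:1049171-1049369 on the minus strand and that of GGPS1 is chr1:235328320-235328398 on the plus strand.
HMGCS1: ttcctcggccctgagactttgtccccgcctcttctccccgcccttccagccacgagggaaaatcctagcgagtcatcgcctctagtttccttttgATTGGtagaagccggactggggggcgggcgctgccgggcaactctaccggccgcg
MVK: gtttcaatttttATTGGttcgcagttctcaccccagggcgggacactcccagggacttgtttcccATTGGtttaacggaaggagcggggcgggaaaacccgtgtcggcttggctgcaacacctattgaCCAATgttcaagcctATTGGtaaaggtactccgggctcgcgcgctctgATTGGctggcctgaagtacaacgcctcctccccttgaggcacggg
MVD: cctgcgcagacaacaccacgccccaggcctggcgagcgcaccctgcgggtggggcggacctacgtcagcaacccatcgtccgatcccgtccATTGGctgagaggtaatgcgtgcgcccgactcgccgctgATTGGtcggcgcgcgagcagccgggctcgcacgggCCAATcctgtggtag
IDI1: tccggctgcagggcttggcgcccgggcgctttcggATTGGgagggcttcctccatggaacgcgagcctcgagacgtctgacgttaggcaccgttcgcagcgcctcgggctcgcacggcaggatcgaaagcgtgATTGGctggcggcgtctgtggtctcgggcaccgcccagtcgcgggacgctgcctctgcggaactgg
GGPS1: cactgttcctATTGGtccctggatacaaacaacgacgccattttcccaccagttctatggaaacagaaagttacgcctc
CCAAT was found on either strand in 6 of the 7 genes with a window, all but PMVK, and in 37.0% of all 27305 genes with a window. A gene counted when any of its windows matched, and HMGCS1, IDI1 and GGPS1 had more than 1 window. Shares by gene do not allow for the number of windows. MVK had 5 matches in its window, MVD and FDPS had 3 each, and IDI1 had 2 in the window shown in part. The other IDI1 windows, whose starts matched no annotated transcript, had 3 and 0. HMGCS1 had 2 in the window shown in part and 0 in a second window that also starts a transcript. GGPS1, whose transcript was not called between the groups, had 1 match in the window shown in part. Its other windows, whose starts matched no annotated transcript, had 0. PMVK, which had 0, was also not called. The number of matches depended on the window taken, and whether matches and calls go together was not tested. The letters TCACNC were present in all 7 genes and in 40.5% of all genes, and GGGCGG, a GC box, was present in all 7 and in 46.2%. Counted by window, 32.0% of all 35116 windows had CCAAT, 35.9% had TCACNC and 42.6% had GGGCGG. The longer TCACNCCAC, the E-box CACGTG and the T-box letters TCACACCT were found in 0 of the 7, against 1.09%, 7.73% and 0.982% of all genes. TCACNCCAC and TCACACCT each contain TCACNC. A match is a description of these letters in these windows and no measure of binding.

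At the entry to the pathway, ACAT2 had the largest fall among the members and HMGCS1 the next, although without shNC replicate 3 HMGCS1 (-1.79) came after FDFT1 (-1.83) on the log2 scale. ACAT2, the cytosolic thiolase that joins acetyl-CoA into acetoacetyl-CoA, had 174, 181 and 172 normalized CPM in shNC and 39.8, 36.8 and 41.7 in shBry. The groups lay far apart, and within each group the libraries were close. ACAT2 was 4.45-fold lower in shBry, with a log2 fold change of -2.15 (SE 0.08, BH-adjusted p = 1.2e-10, edgeR's quasi-likelihood test), and stood at place 98 of 15277 from the lowest. The gene lies at chr6:159760328-159779055 on the plus strand of GRCh38, and exons of other genes, some of which overlap each other, cover 52.3% of its exon bases. SOD2-OT1, a non-coding gene on the opposite strand that was not analysed here, covers 33.9%. SOD2, the mitochondrial superoxide dismutase on the opposite strand, covers 26.5% and had a log2 fold change of 0.56 (SE 0.09, adjusted p = 0.00017 by the same test), under the fold limit, though 0.64 and called without shBry replicate 1. TCP1, a chaperonin subunit also on the opposite strand, covers 9.23% and had a log2 fold change of 0.01 (SE 0.09, adjusted p = 0.92). The sources used here do not give the strand setting of the counting, and reads of ACAT2 and of these genes cannot be told apart without it.

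HMGCS1 condenses acetoacetyl-CoA with acetyl-CoA to HMG-CoA in the cytosol. It had 135, 155 and 180 normalized CPM in shNC and 36.6, 46.9 and 43.9 in shBry. The shNC libraries were more spread than those of the other members that fell relative to their mean, yet every shBry library lay below every shNC library. The log2 fold change was -1.88 (SE 0.12, BH-adjusted p = 1.4e-08, edgeR's quasi-likelihood test), or 3.69-fold lower. The gene lies at chr5:43289395-43313512 on the minus strand, and an antisense gene that was not analysed here covers 15.0% of its exon bases.

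The kinases of the middle of the pathway parted. MVK, mevalonate kinase, had 91.2, 85.8 and 84.3 normalized CPM in shNC and 37.0, 27.8 and 34.0 in shBry. It fell with a log2 fold change of -1.41 (SE 0.11, BH-adjusted p = 9.6e-08, edgeR's quasi-likelihood test), or 2.65-fold. Its neighbour MMAB, a cobalamin adenosyltransferase gene that starts from the same promoter region on the opposite strand, covers 4.72% of its exon bases. MMAB fell as well, from 49.9 ± 4.37 to 26.3 ± 3.90 normalized CPM (SD, n = 3 each), with a log2 fold change of -0.93 (SE 0.12, adjusted p = 1.8e-05 by the same test). MVK lies at chr12:109573255-109598117.

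PMVK, phosphomevalonate kinase, takes the next step and was the one member with higher values in every shBry library. It had 35.0, 34.2 and 32.3 normalized CPM in shNC and 54.4, 37.6 and 41.1 in shBry. The groups did not overlap, but the first shBry library stood well above the other two. The log2 fold change was 0.39 (SE 0.13, BH-adjusted p = 0.019, edgeR's quasi-likelihood test), 1.31-fold higher, which is under the fold limit and was not called. Without shBry replicate 1 it was 0.21 with an adjusted p of 0.134 by the same test, and without shNC replicate 2 or 3 the adjusted p was 0.057 or 0.068. The gene lies at chr1:154924734-154936991 on the minus strand, and no exon of another gene overlaps it.

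MVD, mevalonate diphosphate decarboxylase, makes isopentenyl diphosphate. It had 157, 156 and 135 normalized CPM in shNC and 66.8, 52.6 and 57.2 in shBry, with no overlap. It fell with a log2 fold change of -1.35 (SE 0.10, BH-adjusted p = 9.2e-08, edgeR's quasi-likelihood test), the smallest fall among the 7. The gene lies at chr16:88651935-88663161 on the minus strand with 0% of its exon bases shared.

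PMVK and MVD act in succession, and their ratio within a library needs no scaling. The log2 ratio of PMVK to MVD counts was -2.17, -2.19 and -2.06 in shNC and -0.30, -0.49 and -0.48 in shBry. The groups lay apart by 1.72 on the log2 scale, between ratios of 0.227 and 0.748. The exact two-sided permutation test gave p = 0.1, the smallest that 3 against 3 libraries allow. PMVK was higher and MVD lower in every shBry library, so this separation follows from the values above and is no further evidence.

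IDI1, isopentenyl diphosphate isomerase, had 93.0, 97.5 and 106 normalized CPM in shNC and 32.0, 31.9 and 33.2 in shBry. Its shBry libraries were nearly alike, and all lay well below shNC. It fell with a log2 fold change of -1.61 (SE 0.09, BH-adjusted p = 3.6e-09, edgeR's quasi-likelihood test). The gene lies at chr10:1039152-1049170 on the minus strand. The antisense gene IDI2-AS1 covers 14.8% of its exon bases and had 14 counts in all 6 libraries together.

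FDPS, farnesyl diphosphate synthase, had 324, 335 and 315 normalized CPM in shNC and 112, 93.8 and 105 in shBry. It was the member with the most CPM in both groups, and its groups did not overlap. It fell with a log2 fold change of -1.65 (SE 0.09, BH-adjusted p = 2.0e-09, edgeR's quasi-likelihood test), or 3.14-fold. FDPS lies at chr1:155308748-155320666. RUSC1-AS1 on the opposite strand covers 18.6% of its exon bases and had 69 counts in all, with a log2 fold change of 0.52 (SE 0.52, adjusted p = 0.42 by the same test).

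Farnesyl diphosphate is used by FDFT1 and by GGPS1, and the transcripts of these genes had unlike values. FDFT1, squalene synthase, commits farnesyl diphosphate to sterols. It had 293, 307 and 281 normalized CPM in shNC and 86.0, 81.3 and 89.6 in shBry, well apart. It fell with a log2 fold change of -1.78 (SE 0.08, BH-adjusted p = 5.2e-10, edgeR's quasi-likelihood test), or 3.43-fold. The gene lies at chr8:11795573-11839309 on the plus strand, and a non-coding gene on the opposite strand covers 4.17% of its exon bases.

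GGPS1, geranylgeranyl diphosphate synthase, makes a lipid that is attached to proteins such as Rab GTPases. It had 7.83, 10.6 and 11 normalized CPM in shNC and 10.3, 12.5 and 10.5 in shBry, and the groups overlapped. The log2 fold change was 0.18 (SE 0.16, BH-adjusted p = 0.35, edgeR's quasi-likelihood test). A p that misses the threshold does not show equal levels, and the counts of this gene were the lowest among the members. GGPS1 lies at chr1:235327350-235344532, and 41.0% of its exon bases lie in exons of other genes. TBCE, a tubulin-folding cofactor gene on the same strand, covers 37.3% and shares 33.2% of the 50-base stretches of GGPS1 transcripts. TBCE had 15, 66 and 7 counts in the shNC libraries and 83, 57 and 81 in the shBry libraries, which overlap. It was called higher with a log2 fold change of 1.31 (SE 0.51, adjusted p = 0.043 by the same test). That call was lost without shBry replicate 1 (1.10, adjusted p = 0.082 by edgeR) or 3 (1.29, 0.0862) and without shNC replicate 1 (0.97, 0.141) or 3 (0.84, 0.153). Without shNC replicate 2 the log2 fold change of TBCE was 2.69 (adjusted p = 0.00011 by edgeR). ARID4B on the opposite strand covers 3.62% and had a log2 fold change of 0.47 (SE 0.17, adjusted p = 0.034), under the fold limit, though 0.61 and called without shNC replicate 3. How reads shared by GGPS1 and TBCE were counted is not given in the sources used here, and the value of GGPS1 is uncertain to that extent.

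The log2 ratio of FDFT1 to GGPS1 counts was 5.22, 4.86 and 4.68 in shNC and 3.06, 2.70 and 3.09 in shBry. All 3 shBry ratios lay below all 3 shNC ratios, and the difference was -1.97. In linear terms FDFT1 had 30.3 times the counts of GGPS1 in shNC and 7.74 times in shBry. The exact two-sided permutation test gave p = 0.1, again the smallest that the design allows. The gap of FDFT1 between the groups exceeded the spread of GGPS1, so this ratio also restates the values above.

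**Figure D2:**
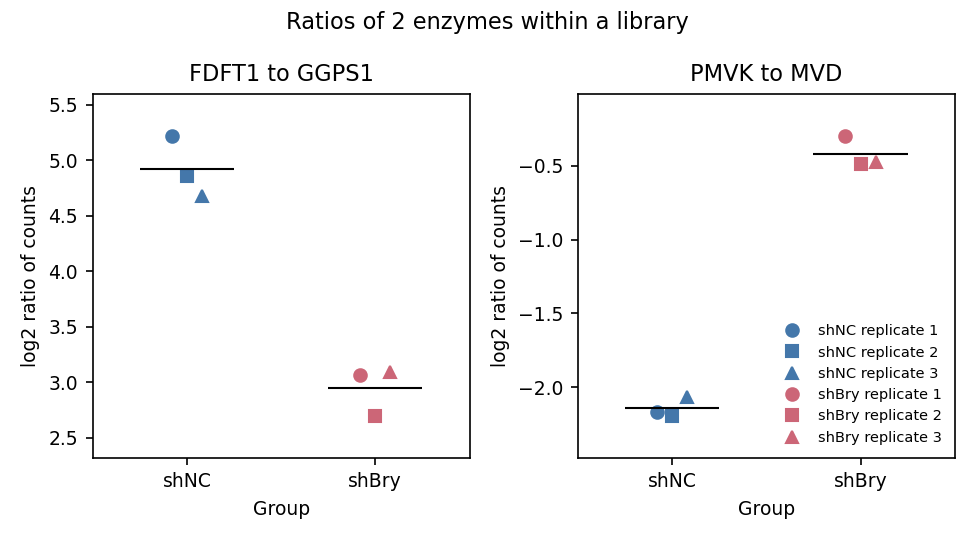
Log2 ratios of counts within each library for FDFT1 to GGPS1 and for PMVK to MVD, with shNC in blue, shBry in red and group means as bars. The first ratio is lower in every shBry library and the second is higher in every shBry library.

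Per length, the order of the members differed between the groups. In shNC, the level per kb of annotated exon was highest for FDPS, at 87.3 ± 2.80 CPM per kb (SD, n = 3), followed by FDFT1 at 56.4 ± 2.47 and ACAT2 at 40.8 ± 1.04. HMGCS1 at 33.3 ± 4.83 and MVD at 31.7 ± 2.69 overlapped between libraries. PMVK followed at 26.4 ± 1.10, IDI1 at 22.7 ± 1.47, MVK at 13.4 ± 0.554 and GGPS1 at 2.57 ± 0.449 CPM per kb. PMVK was thus at place 6 in shNC.

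In shBry the level per kb was 34.7 ± 6.95 CPM per kb for PMVK and 27.8 ± 2.43 for FDPS, whose libraries overlapped at the top. FDFT1 had 16.5 ± 0.799 and MVD 12.5 ± 1.54. ACAT2 at 9.18 ± 0.572 and HMGCS1 at 9.03 ± 1.12 overlapped and were followed by IDI1 at 7.45 ± 0.159, MVK at 5.08 ± 0.722 and GGPS1 at 2.91 ± 0.323. The order depended on the length used. Exon bases shared with other genes stayed in the length, 52.3% for ACAT2 and 41.0% for GGPS1 but 0% for PMVK and MVD. How reads in shared bases were counted is not given in the sources used here, so levels of such genes are uncertain to that extent. With the longest transcript of each gene in place of all its exons, a setting added after the data were seen, FDPS had the highest level in shBry and PMVK was at place 2 there. In shNC the order by that length was FDPS, FDFT1, MVD, ACAT2, HMGCS1, IDI1, PMVK, MVK and GGPS1, with MVD at 63.6 and ACAT2 at 55.2 CPM per kb.

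**Figure D3:**
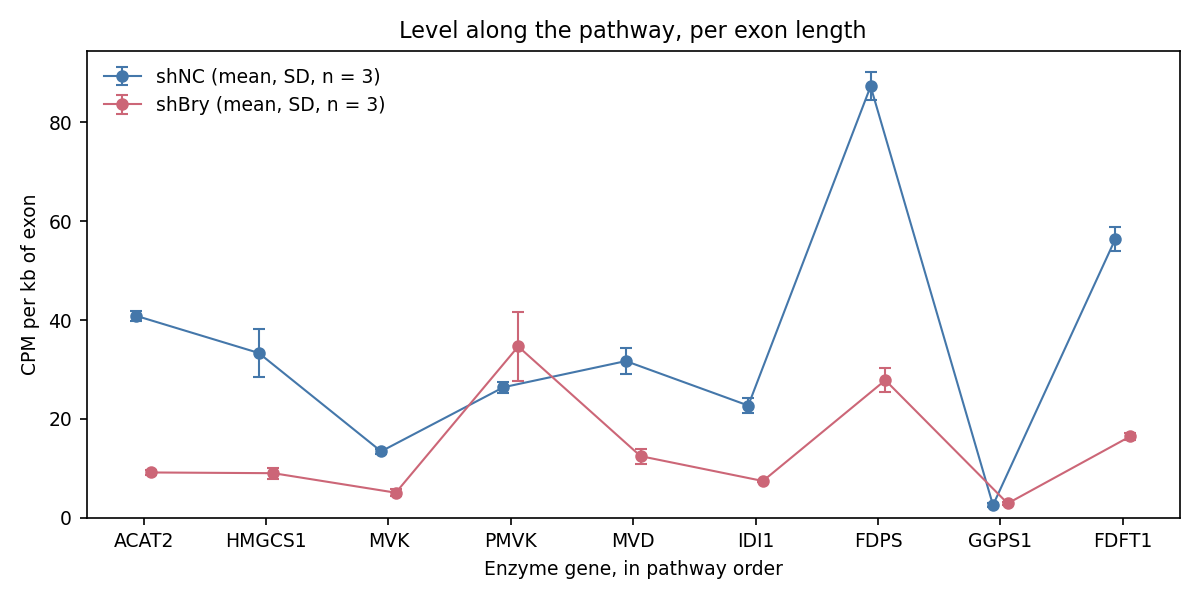
Level of each enzyme gene in CPM per kb of annotated exon, as the mean and SD of each group, with shNC in blue and shBry in red. In shNC, FDPS is highest, and in shBry, PMVK and FDPS overlap at the top while GGPS1 is lowest in both.

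The mean profile of the 7 members that fell served as a reference over the 6 libraries. Because the 7 were taken by their calls and each counts in that mean, the distances are a description that also holds the size of the fold change. Each log2 CPM was centred over the libraries and compared with the mean of the 7 by the root mean square difference. This distance was 0.048 for FDPS, 0.056 for FDFT1 and 0.075 for IDI1, and 0.169 for MVK, 0.200 for MVD, 0.203 for HMGCS1 and 0.233 for ACAT2. The distance was 0.958 for GGPS1 and 1.04 for PMVK. Among the 9354 other genes that reached 10 CPM on average, the nearest were APLN at 0.0428, CTDSPL at 0.0470, MCM4 at 0.0522, GTSE1 at 0.0526 and EMP2 at 0.0526. APLN encodes the peptide apelin, MCM4 a subunit of the replicative helicase and GTSE1 a protein of the G2 and S phases, and the likeness is a description over 6 libraries.

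Beyond squalene, all 11 enzymes to cholesterol that were counted were called lower, against 15.2% of all genes tested, with a median log2 fold change of -1.18 and a range of -1.72 to -0.64. DHCR7, which makes the last step of one branch to cholesterol, fell from 209 ± 8.95 to 63.6 ± 1.99 normalized CPM (SD, n = 3 each), with a log2 fold change of -1.72 (SE 0.08, BH-adjusted p = 6.6e-10, edgeR's quasi-likelihood test). EBP, a sterol isomerase, fell by 1.63 on the log2 scale (adjusted p = 1.5e-08 by the same test). The members from ACAT2 to FDFT1 that fell had log2 fold changes of -2.15 to -1.35, beside this range.

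Enzymes that use isoprenoid diphosphates outside sterol synthesis were called in both directions. Of 12, 3 were called higher and 2 (16.7%) lower, against 17.1% higher and 15.2% lower among all genes tested. In either direction 41.7% were called, against 32.4% of all genes tested. With so few genes these counts are not far from the overall shares and do not set the list apart. The median log2 fold change was 0.24. RABGGTB, the beta subunit of the enzyme that prenylates Rab proteins, rose from 28.0 ± 3.44 to 63.6 ± 6.12 normalized CPM (SD, n = 3 each), with a log2 fold change of 1.19 (SE 0.11, BH-adjusted p = 8.9e-07, edgeR's quasi-likelihood test). PGGT1B, a subunit of another protein prenyltransferase, was called higher at 0.74, and RABGGTA, the partner of RABGGTB, at 0.59 on the log2 scale. RABGGTA lay just above the fold limit, and its call was lost without shBry replicate 1 (0.49) and without shNC replicate 1 (0.51) or 3 (0.48). FNTB, the beta subunit of farnesyltransferase, was called lower at -0.99 and PDSS2, a subunit of the enzyme for the ubiquinone side chain, at -0.90 (adjusted p = 1.1e-05 and 0.0002 by the same test).

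Of 16 genes of sterol control and uptake, 15 were tested, 6 were called lower and 4 higher, against 15.2% and 17.1% of all genes tested, with a median log2 fold change of -0.42. INSIG1, which holds the SREBP complex in the endoplasmic reticulum, fell from 89.5 ± 4.71 to 26.8 ± 4.16 normalized CPM (SD, n = 3 each), with a log2 fold change of -1.74 (SE 0.11, BH-adjusted p = 1.7e-08, edgeR's quasi-likelihood test). NPC2, a lysosomal cholesterol carrier, and SREBF2, which encodes SREBP-2, were called lower at -0.97 and -0.78 on the log2 scale. SREBF1, which encodes SREBP-1, was called higher at 0.69, and so were the SREBP protease gene MBTPS2 at 0.76, the lysosomal cholesterol transporter gene NPC1 at 0.77 and the cholesterol export pump gene ABCA1 at 1.29. The genes for both lysosomal cholesterol proteins were therefore called in opposite directions.

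Of 5 genes of acetyl-CoA supply and paralogs, 4 were tested, and IDI2, the paralog of IDI1, had 0 counts in all libraries. ACSS2, which makes acetyl-CoA from acetate in the cytosol, was the 1 gene called, against 32.4% of all genes tested called in either direction, and fell by 1.56 on the log2 scale (SE 0.08, BH-adjusted p = 3.3e-09, edgeR's quasi-likelihood test). ACLY, which makes cytosolic acetyl-CoA from citrate, had a log2 fold change of -0.34 (SE 0.07, adjusted p = 0.0016 by the same test), under the fold limit. ACAT1, the mitochondrial counterpart of ACAT2, had one of -0.05. The median of the 4 was -0.19.

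**Figure D4:**
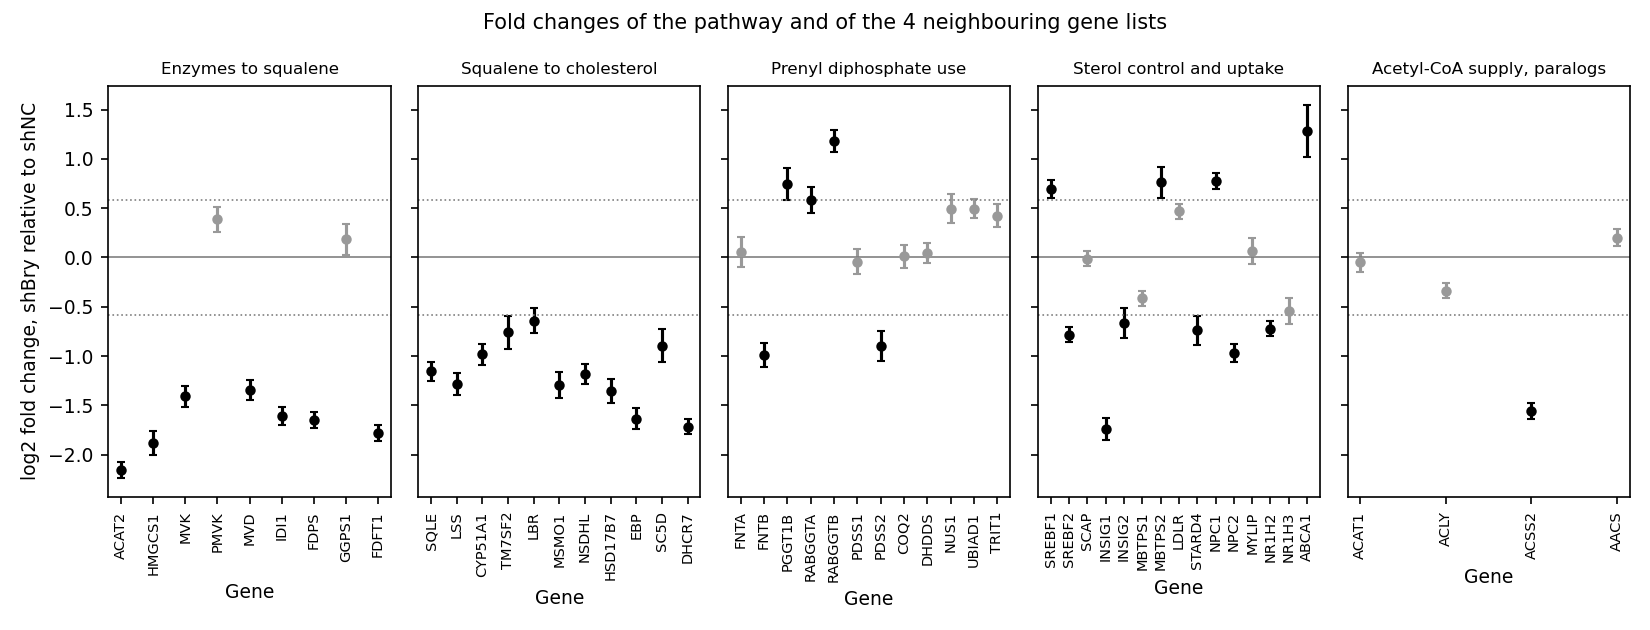
Log2 fold change (shBry relative to shNC) with its SE for the 9 enzyme genes and 4 neighbouring lists, black where called and grey where not, with dotted lines at the fold limit of 1.5. The enzymes to squalene other than PMVK and GGPS1, and all 11 enzymes to cholesterol shown, lie below the lower line.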

How the data were processed

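Total RNA of 3 MDA-MB-231 shBry and 3 MDA-MB-231 shNC libraries was sequenced by the authors, who deposited whole-number counts of reads per gene symbol with no normalization. The submitters' processing notes name HISAT2 2.0.4, HTSeq and GRCh38. The annotation and the strand setting are not given in the sources used here. Samples were grouped by the hairpin in their labels.

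The deposited counts were passed through filterByExpr (minimum count 10), scaled with TMM and tested with the quasi-likelihood test of edgeR 4.0.16 (limma 3.58.1, R 4.3.3) with Benjamini-Hochberg adjustment over 15277 genes. A call needed to pass 0.05 for the adjusted p and 1.5 for the fold. The study states 0.05 for a p-value and 1.5 for the fold, and names no test. CPM are TMM-normalized. Standard errors were the log2 fold change divided by the square root of F. The fits were tested on simulated data. The alternatives tried were no TMM scaling, DESeq2 1.42.0, limma-voom, no filter or a stricter one, other fold limits, a replicate block and each library left out.

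The members and lists were chosen with earlier results of these data known. The lists were the enzymes from squalene to cholesterol, prenyl diphosphate use, sterol control and uptake, and acetyl-CoA supply and paralogs, and 3 of their genes are not reported here. Genes named besides the members were the 3 with the smallest adjusted p in each list, less any not reported here, those called against the majority of their list, tested genes whose exons overlap a member, and the 5 nearest in pattern. PGGT1B, RABGGTA, ACAT1 and the promoter letters TCACNC were added after values were seen. Exons and lengths came from GENCODE 29 on GRCh38, matched by symbol, and promoters from RefSeq. Library totals were 19319411 to 22985371 counts.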

Additional observations from a re-analysis of the deposited data

How the results depend on the processing

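Over 14 alternative settings, the number of members called stayed at 7 except with no fold limit, where PMVK was added as higher for 8. The members' direction did not turn in any of them. Across all genes 4945 were called, against 2297 at a fold change above 2 and 8139 with no fold limit. At a fold change above 2, the counts called were 7 from squalene to cholesterol, 1 for prenyl diphosphate use and 2 for sterol control and uptake. With no limit they were 8 for prenyl diphosphate use and 2 for acetyl-CoA supply and paralogs.

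Leaving out each library in turn, genes called ranged from 4587 to 5025. The log2 fold change ranged from -2.20 to -2.12 for ACAT2, -1.98 to -1.79 for HMGCS1, -1.50 to -1.31 for MVK, 0.21 to 0.48 for PMVK, -1.45 to -1.29 for MVD, -1.65 to -1.58 for IDI1, -1.71 to -1.60 for FDPS, 0.04 to 0.25 for GGPS1 and -1.83 to -1.76 for FDFT1. The ratio difference ranged from -2.09 to -1.82 for FDFT1 to GGPS1 and from 1.66 to 1.76 for PMVK to MVD. Called genes numbered 10 to 11 from squalene to cholesterol, 4 to 5 for prenyl diphosphate use and 10 to 11 for sterol control and uptake.

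Of 23 other genes followed over the 12 settings that keep the fold limit, 6 changed call or sign. TCP1, near 0, turned to -0.0091 without TMM, -0.0093 with DESeq2 and -0.014 with no filter, and ranged from -0.052 to 0.052 with a library left out, as ACAT1 did from -0.11 to 0.033. TBCE lost its call without TMM and with DESeq2, and RABGGTA with these, with no filter and with the stricter filter, besides the libraries named in the report. SOD2 and ARID4B passed the fold limit with a library left out.

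With the replicate block, 4914 genes and 7 members were called. Deviations from the group means correlated at 0.24, -0.13 and -0.06 between libraries of the same number, and at -0.30 to 0.31 between unlike numbers. Deviations within a group of 3 are tied to each other, so these values cannot decide whether the numbers pair the libraries. Among the members, depth limits GGPS1 most.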
